A study of Canis lupus familiaris with 7 samples.

Results

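The sarcomere genes of skeletal muscle were followed across bone samples of dogs, as a group of 45 genes that covers the slow and fast isoforms of myosin and troponin together with the structural proteins around them. They were taken by symbol from the deposited table of 24580 genes, with earlier results of these data known; what chose them was their lower level in OSA (osteosarcoma) tumor than in non-tumor bone, so the fitted values of that contrast are given for these genes as a description and nothing is inferred from them. Of the 45 genes 41 matched a row, and *ACTC1*, *ACTN3*, *MYH2* and *NEB* were not analysed here. RNA from 4 pieces of grossly non-malignant bone (N1, N3, N8 and N9) and 3 osteosarcomas (T1, T3 and T10) was sequenced, from tissue obtained at amputation or euthanasia. The study describes the non-tumor bone as adjacent to tumor, so these controls are not bone of healthy animals. Breed, sex and age of the donors were not given in the sources used here. All values are FPKM, fragments scaled to transcript length and to the mapped fragments of the library, which allows levels to be compared between genes per length.

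The sarcomere is the contractile unit of striated muscle. Thick filaments of myosin pull on thin filaments of actin, tropomyosin and the troponin complex, in which troponin C binds calcium, troponin I blocks the filament and troponin T anchors both to tropomyosin. Slow, fatigue-resistant fibers and fast fibers build the same machine from different genes, and muscle fibers are not a component of bone matrix or marrow but insert on the bone surface.

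The number of fragments behind 1 FPKM, read from the steps between the lowest values and set relative to N1, ran from 0.544 in N8 to 1.45 in T10. N1 stood apart from the other non-tumor samples. Over the 13468 other tested genes its log2(FPKM + 1) values had a Pearson correlation of 0.917 with T1, a description across genes, while the other 20 pairs of samples lay between 0.566 and 0.809. The genes listed as osteoblast markers were lowest on average in N8 and N9. The mean log2(FPKM + 1) of the 7 markers listed was 3.02 in N8 and 4.53 in N9, and between 5.15 and 8.72 in the other 5 samples. The summed FPKM of these markers was 161 in N8 and 492 in N9 and ran from 1674 to 12482 in the other 5 samples. *COL1A2* alone gave 9139 of the 12482 in T1, so the sums are not a measure of bone-forming cells. *SP7* was at 1.26 FPKM in N3 and 0.991 in T3, against 0.702 in N9 and 0.0833 in N8. N8 and N9 were the 2 lowest samples in 5 of the 7 markers, *BGLAP* and *PHEX* being the others. Erythroid markers also differed, with a summed FPKM of the 7 listed of 2862 in N3, 4382 in N8, 177 in N9 and 6.63 in N1, and 3.41 to 72.9 in tumor. Adipocyte markers summed to 26.8 FPKM in N1 and to between 92.7 and 194 in N3, N8 and N9, against 9.82 to 44.5 in tumor. The part of these cell types in the results below was not tested. By the limits given below, 5 of the 7 tested erythroid markers and 3 of the 3 tested adipocyte markers were lower in tumor, where 3.58% of all tested genes were lower and 3.28% higher, and 0 of the 7 osteoblast markers passed in either direction. Of these 8 lower markers 6 had a tumor mean under 1 FPKM and reached the filter on low values through the non-tumor samples alone, which sets their direction, so nothing is read from the counts. Among the 8 were the erythrocyte membrane genes *SLC4A1* and *EPB42* and the lipid genes *PLIN1*, *CIDEC* and *LPL*.

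**Figure D1:**
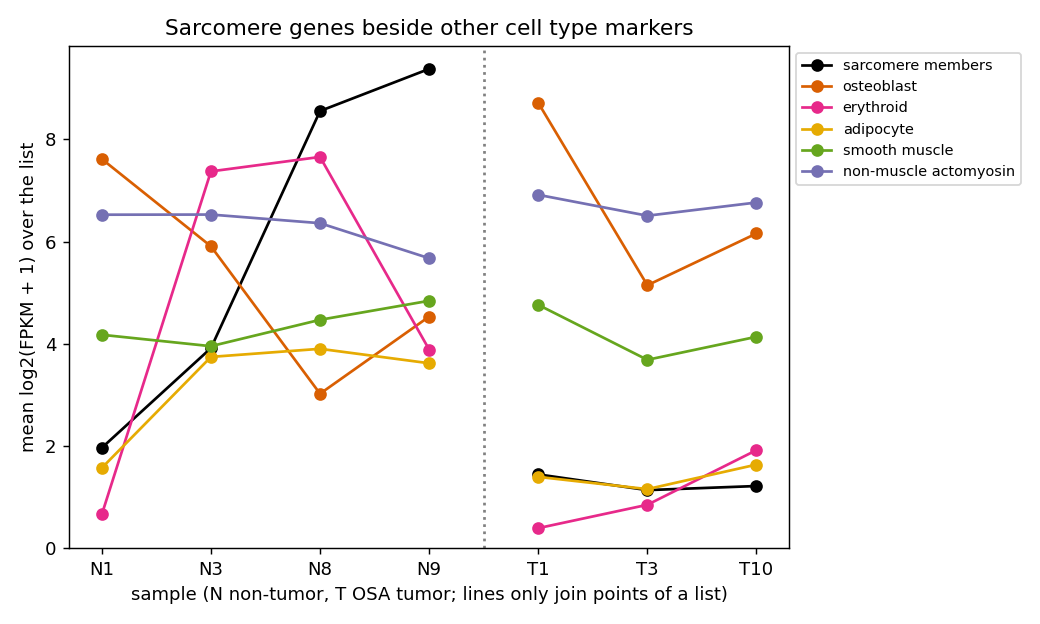
Mean log2(FPKM + 1) of the 40 sarcomere genes above 0 and of 5 lists of other markers, by sample; lines join the points of a list within a group and have no other meaning. The sarcomere genes rise from 1.97 in N1 to 9.38 in N9 and lie between 1.14 and 1.45 in the tumors, while the mean of the osteoblast markers is lowest in N8 and N9.

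Sarcomere transcripts were abundant in N8 and N9, present in N3 and low in N1 and the tumors. The median of the 40 members that were above 0 in any sample was 1219 FPKM in N9, 489.6 in N8, 24.6 in N3 and 2.48 in N1, and in the tumors 0.642 (T1), 0.267 (T3) and 0.517 (T10). Together they held 4.72% of the summed FPKM of N8 and 8.88% of N9, but 0.263% of N3, 0.0955% of N1 and at most 0.0849% of a tumor. A level of 100 FPKM or more was reached by 27 members in N8 and 33 in N9, by 5 in N3 and by 1 in N1, and by 2 in T1, 1 in T3 and 1 in T10. The summed FPKM of the members was 516 in N1, 559.9 in T1, 328 in T3 and 494 in T10, sums that *TPM1*, *TPM2* and *TPM3* made up by 75.2% in N1 and by 82.6% to 91.3% in the tumors. The 6 slow and 6 fast genes together summed to 58.3 FPKM in N1 and to between 12.3 and 31.0 in the tumors. N1 lay above every tumor in 22 of the 40 genes. No share over all tested genes was formed for this count, so nothing is read from it. The non-tumor samples did not form one level: N1 was the lowest of them in 34 of the 40 genes, N9 the highest in 30 and N8 in the other 10. In bulk tissue, fewer muscle cells and less RNA per cell cannot be told apart.

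**Figure D2:**
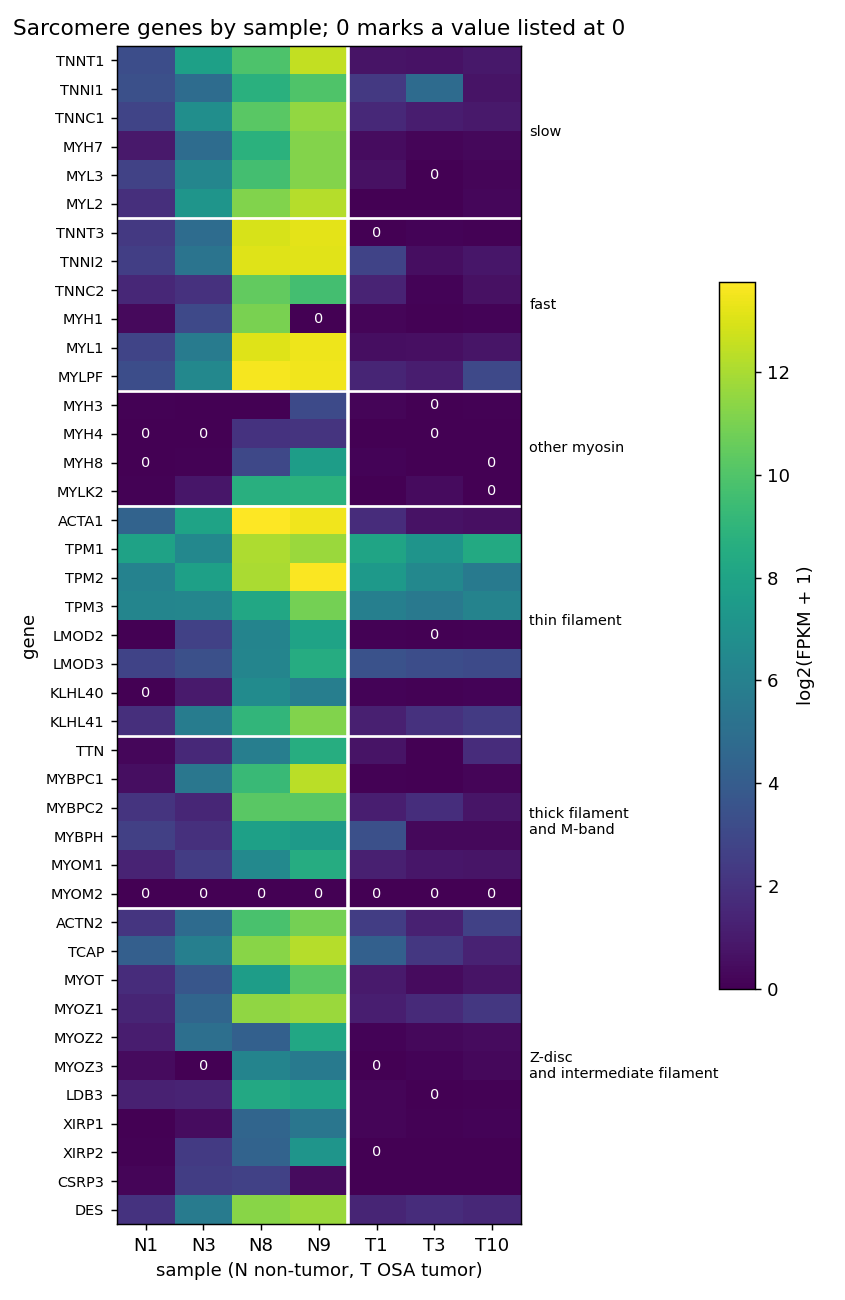
Level of the 41 listed sarcomere genes in each sample as log2(FPKM + 1), grouped by role; 0 marks a value listed at 0. N8 and N9 are bright for nearly all genes, and the 3 tropomyosin genes are the highest in every tumor.

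Of the 41 listed genes 39 averaged 1 FPKM or higher across the 7 samples and entered the fit over all genes. A gene high in N8 and N9 alone passes that filter, which by itself sets its direction. In that fit, limma on log2(FPKM + 1), 25 of them were lower in OSA tumor by at least 2-fold with an unadjusted p under 0.05, 0 were higher, and all 39 differences were negative, with a median of -4.65 on the log2 scale. Over all 13507 tested genes 3.58% passed in that direction and the median was -0.02. Since this contrast chose the genes, nothing is read from the count. No gene reached an adjusted p under 0.05 in limma, the smallest being 0.693, while 927 genes had an unadjusted p under 0.05. Every tumor sample lay below every non-tumor sample in 19 of the 40 members above 0 (2.81% of all tested genes). With N1 left out of that comparison the number was 30 (9.31%). The count in the fit changed when a sample was left out, and so did the share of all tested genes that were lower. It was 36 without N1 (8.67% of all tested genes), 34 without N3 (4.47%), 16 without N8 (1.18%) and 16 without N9 (3.05%). Among the tumors it was 16 without T1 (4.57%), 16 without T3 (1.59%) and 15 without T10 (1.16%). After each sample's FPKM were brought to 1 common sum it was 33 (3.63%). This rescaling moved the median of all tested genes from -0.02 to 0.12 and the share of lower genes among all calls from 52.2% to 64.4%. That share was 49.6% under median ratio scaling and 45.3% under quantile normalization.

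The slow isoforms are those of oxidative, posture-holding fibers. *TNNT1* (ENSCAFG00000002620, chromosome 1, 102481015 to 102491217 in CanFam3.1), slow troponin T, was at 8.38 (N1), 228 (N3), 984 (N8) and 5815 (N9) FPKM in non-tumor bone and at 0.647 (T1), 0.575 (T3) and 0.851 (T10) in tumor. *TNNC1* (ENSCAFG00000009404, chromosome 20, 37313168 to 37317809), the troponin C of slow and cardiac muscle, was at 6.02 (N1), 111 (N3), 1232 (N8) and 2946 (N9) FPKM in non-tumor bone and at 2.05 (T1), 1.11 (T3) and 0.913 (T10) in tumor. Both had the same order of samples, N1 below N3 below N8 below N9, and all their tumor values lay below N1. *MYH7* (ENSCAFG00000011619, chromosome 8, 3660155 to 3677650), the slow myosin heavy chain, was at 0.946 (N1), 28.0 (N3), 439 (N8) and 2368 (N9) FPKM in non-tumor bone and at 0.393 (T1), 0.138 (T3) and 0.245 (T10) in tumor. Its interval also holds the listed microRNA gene cfa-mir-208b. *MYL2* (ENSCAFG00000008524, chromosome 26, 8623641 to 8632895), the slow regulatory light chain, was at 2.58 (N1), 142 (N3), 2244 (N8) and 4727 (N9) FPKM in non-tumor bone and at 0.0344 (T1), 0.0261 (T3) and 0.202 (T10) in tumor. *MYL3*, the slow essential light chain, was at 5.51 (N1), 78.9 (N3), 797 (N8) and 2375 (N9) FPKM in non-tumor bone, at 0.542 in T1 and 0.134 in T10, and was listed at 0 in T3. In each of these 5 genes N9 was highest, 2.11 to 5.91 times N8, and the groups did not overlap. *TNNI1* (ENSCAFG00000010784, chromosome 7, 1645580 to 1658556), slow troponin I, was the exception, at 9.31 (N1), 28.0 (N3), 425 (N8) and 1001 (N9) FPKM in non-tumor bone and at 3.86 (T1), 26.9 (T3) and 0.660 (T10) in tumor. T3 was thus level with N3 in this gene and above N1, while T10 was the lowest sample. The log2 differences of the slow members, tumor minus non-tumor, ran from -7.97 (*MYL2*, standard error 2.07) to -4.13 (*TNNI1*, standard error 1.58).

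The fast isoforms were each above their slow counterpart in N8, whereas in N3 this held for troponin I alone. *TNNT3* (ENSCAFG00000010081, chromosome 18, 46131769 to 46148633), fast troponin T, was at 3.95 (N1), 28.2 (N3), 7837 (N8) and 9454 (N9) FPKM in non-tumor bone, at 0.0821 in T3 and 0.0703 in T10, and was listed at 0 in T1. *MYLPF* (ENSCAFG00000016543, chromosome 6, 17719683 to 17721750), the fast regulatory light chain, was at 8.54 (N1), 83.9 (N3), 12257 (N8) and 11329 (N9) FPKM in non-tumor bone and at 1.65 (T1), 1.15 (T3) and 7.12 (T10) in tumor. *MYL1* (ENSCAFG00000013875, chromosome 37, 18143885 to 18168071), the fast essential light chain, was at 5.98 (N1), 51.6 (N3), 8798 (N8) and 11047 (N9) FPKM in non-tumor bone and at 0.439 (T1), 0.478 (T3) and 0.700 (T10) in tumor. N8 and N9 were alike in these 3 genes and more than 100 times above N3, and no tumor value reached N1. *TNNC2*, fast troponin C, was at 1.89 (N1), 2.85 (N3), 1391 (N8) and 792 (N9) FPKM in non-tumor bone and at 1.59 (T1), 0.107 (T3) and 0.538 (T10) in tumor. It was the fast gene with the lowest level in N3, and N9 was at 0.569 times N8. *TNNI2* (ENSCAFG00000010068, chromosome 18, 46076928 to 46079538), fast troponin I, was at 4.85 (N1), 38.8 (N3), 8749.9 (N8) and 8949 (N9) FPKM in non-tumor bone and at 5.74 (T1), 0.434 (T3) and 0.794 (T10) in tumor, so T1 lay above N1. *MYH1* (ENSCAFG00000030337, chromosome 5, 34777628 to 34836026), a fast myosin heavy chain, was at 0.291 FPKM in N1, 7.08 in N3 and 2028 in N8 but was listed at 0 in N9, and was at 0.133 (T1), 0.0418 (T3) and 0.115 (T10) in tumor. The creatine kinase gene *CKM*, one of the highest muscle transcripts, was likewise listed at 0 in N9 and at 35044 FPKM in N8; 66 genes of the table combine a 0 in some sample with at least 500 FPKM in another, so the 0 of *MYH1* may not be a true absence. The log2 differences of the fast members ran from -8.26 (*TNNT3*, standard error 2.44) to -3.46 (*MYH1*, standard error 2.25).

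**Figure D3:**
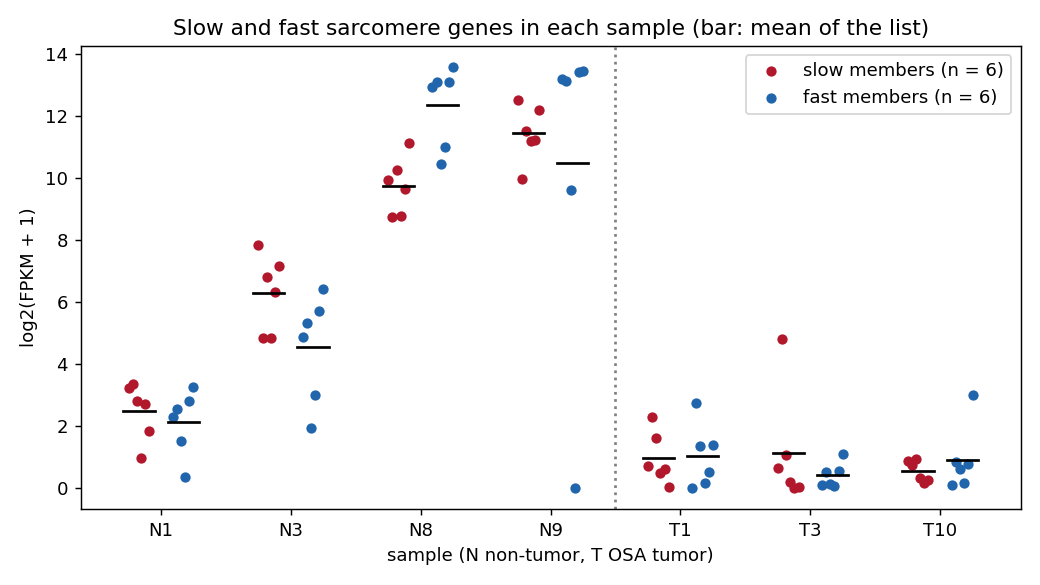
Levels of the 6 slow and 6 fast sarcomere genes in each sample as log2(FPKM + 1), 1 point per gene, with a bar at the mean of the list. The slow genes are higher on average in N3 and the fast genes in N8; the fast mean of N9 includes MYH1, listed at 0 there.

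The balance of slow and fast isoforms differed between the non-tumor samples. Of the summed FPKM of the 6 slow and 6 fast genes, the slow genes held 74.4% in N3, 56.2% in N1, 31.6% in N9 and 13.0% in N8. Without *MYH1* these shares were 75.0%, 56.5%, 31.6% and 13.6%. The ratio of slow to fast FPKM was also formed for paired genes within a sample. *TNNT1* was at 8.07 times *TNNT3* in N3, 0.126 times in N8 and 0.615 times in N9. *MYL2* was at 1.70, 0.183 and 0.417 times *MYLPF* in the same order. For troponin C the ratio of *TNNC1* to *TNNC2* was 38.9 in N3, 0.886 in N8 and 3.72 in N9. Among N3, N8 and N9, the ratio was higher in N3 than in N8 in all 8 pairs, with N9 between them in the 7 pairs where it could be formed. N1 did not keep to that order: its ratio was above that of N3 for *TNNI1* to *TNNI2* (1.92 against 0.720) and below that of N8 for *MYBPC1* to *MYBPC2* (0.130 against 0.527), and it lay between N8 and N3 in the other 6 pairs. These ratios do not depend on the scaling between samples, but each sample is a single piece of tissue, so the order has no replicate check.

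**Figure D4:**
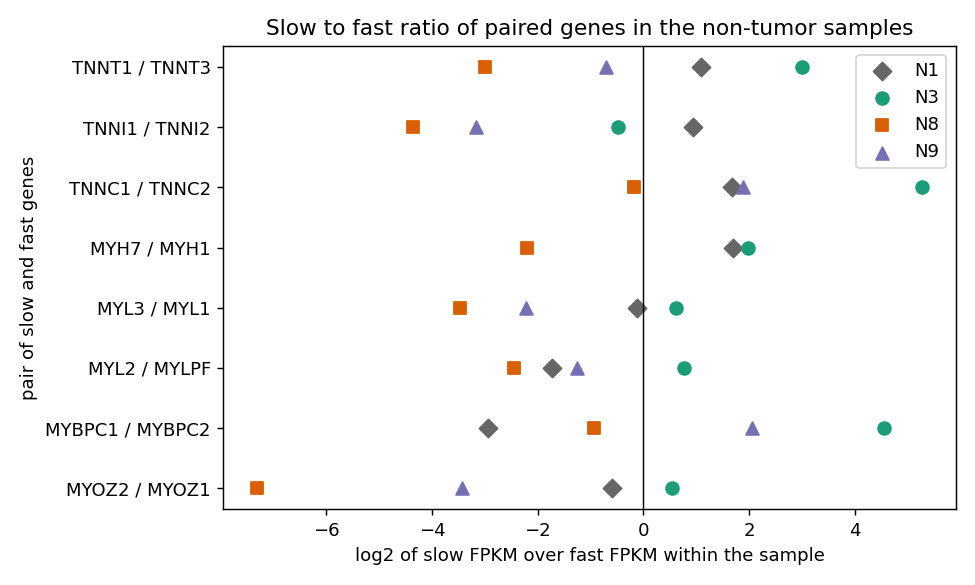
Log2 ratio of slow to fast FPKM for 8 pairs of genes in N1, N3, N8 and N9; positive values mean more of the slow gene, and N9 has no point for MYH7 over MYH1. N3 lies right of N8 in every pair, from 3.21 log2 units apart (MYL2) to 7.87 (MYOZ2).

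The split was seen gene by gene when N8 was set against N3. The 6 slow genes were 4.32 to 15.7 times higher in N8 than in N3 (median 13.2), and the 6 fast genes 146 to 488 times (median 252), so the ranges did not meet. After that rescaling to 1 common sum they were 1.70 to 6.19 and 57.4 to 192. Over the 11598 tested genes at 1 FPKM or more in both samples the median was 0.938, and 0.121% lay at or above the lowest fast gene. From N8 to N9 the order turned: the slow genes were 2.11 to 5.91 times higher in N9, and the 5 fast genes above 0 in both lay between 0.569 and 1.26 times. From N1 to N3 the ranges overlapped, at 3.002 to 55.2 times for slow and 1.51 to 24.3 times for fast genes. In the tumors the slow share of the sum was 44.1% in T1, 92.6% in T3 and 24.4% in T10, but the sums themselves were 17.1, 31.0 and 12.3 FPKM. A single gene held 33.6% of the sum in T1 (*TNNI2*), 86.6% in T3 (*TNNI1*) and 57.7% in T10 (*MYLPF*).

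**Figure D5:**
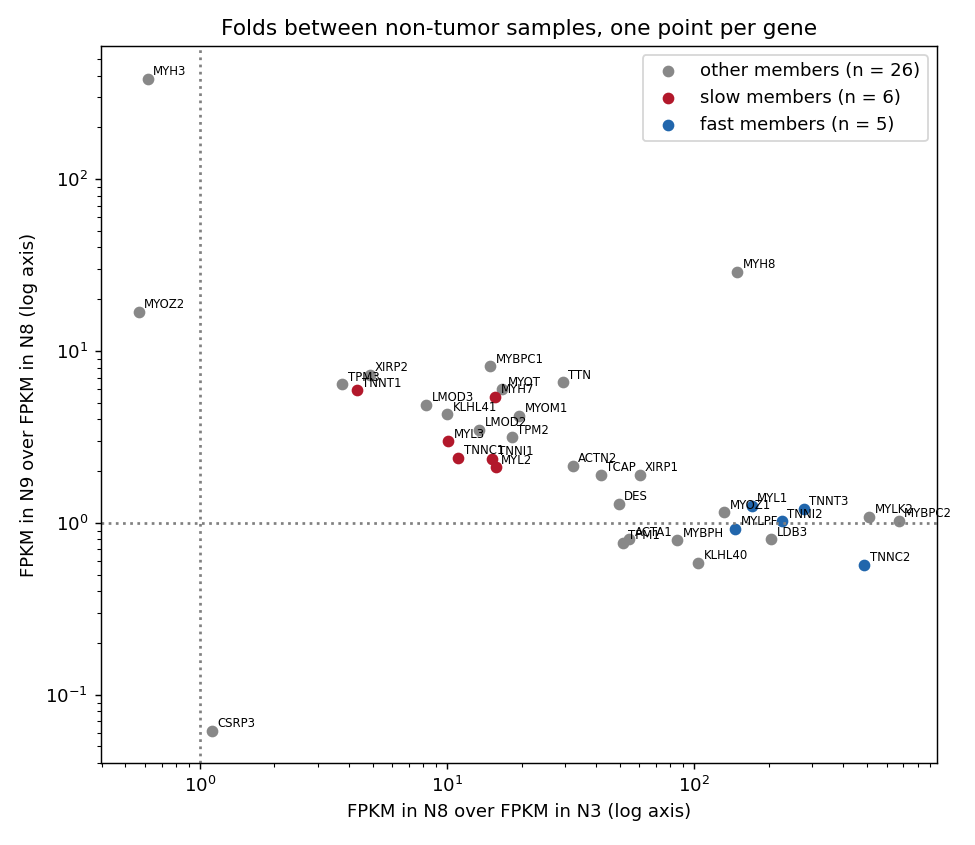
FPKM in N8 over FPKM in N3 against FPKM in N9 over FPKM in N8, both on log axes, for the 37 members above 0 in these samples; dotted lines mark equal levels. The slow genes lie between 4.32 and 15.7 on the horizontal axis and the fast genes at 146 or more, with structural genes on both sides and CSRP3, MYH3, MYH8 and MYOZ2 away from the rest.

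The members outside the slow and fast lists spread over both ranges and beyond them. Of the 26 that could be set against N3, 9 had a ratio of N8 to N3 no higher than the highest slow gene, 4 had one at least that of the lowest fast gene, and 13 lay between. Within the slow range were *MYBPC1* (14.9), the slow myosin-binding protein C, *LMOD2* (13.5), *KLHL41* (10.01), *LMOD3* (8.24) and *XIRP2* (4.86). Below it were *TPM3* (3.76), the slow tropomyosin, *CSRP3* (1.12), *MYH3* (0.614) and *MYOZ2* (0.565), the myozenin of slow and cardiac fibers. *MYOZ2* was thus lower in N8 than in N3. *MYH3* was at 0.0193 FPKM in N8 and 0.0314 in N3, too low for its ratio to be read. Within the fast range were *LDB3* (204) and *MYH8* (149), and above it were *MYBPC2* (671), the fast myosin-binding protein C, and *MYLK2* (510.0), the kinase of the skeletal regulatory light chain. The ratio of *MYH8* rests on 0.0467 FPKM in N3. *ACTA1*, the actin of both fiber types, was at 54.6.

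The developmental myosin heavy chains were largely a feature of N9. *MYH8* (ENSCAFG00000017522, chromosome 5, 34696494 to 34723574), the perinatal chain, was at 200.4 FPKM in N9 and 6.96 in N8, at 0.0467 in N3 and listed at 0 in N1, and was at 0.0892 in T1, 0.0168 in T3 and listed at 0 in T10. *MYH3* (ENSCAFG00000023094, chromosome 5, 34914918 to 34936610), the embryonic chain, was at 7.43 FPKM in N9 and at most 0.135 in the other 6 samples. *MYH4*, the chain of the fastest fibers, was at 3.001 FPKM in N8 and 3.23 in N9 and at 0.0334 or less elsewhere, and it did not enter the fit. *MYH1*, *MYH3*, *MYH4* and *MYH8* lie near each other on chromosome 5 and are close copies, and how reads shared between them were assigned was not given in the sources used here, so their single values are uncertain. *MYLK2*, whose interval on chromosome 24 is shared with *DUSP15* and another gene, was at 0.0482 (N1), 0.797 (N3), 407 (N8) and 441 (N9) FPKM in non-tumor bone, at 0.0257 in T1 and 0.302 in T3, and was listed at 0 in T10.

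Among the thin filament genes, skeletal actin was at trace levels in tumor while the tropomyosins were high in every sample. *ACTA1* (ENSCAFG00000008253, chromosome 4, 9812782 to 9815574) was at 20.0 (N1), 255 (N3), 13913 (N8) and 11146 (N9) FPKM in non-tumor bone and at 2.41 (T1), 0.623 (T3) and 0.497 (T10) in tumor, a log2 difference of -8.88 (standard error 2.01). The tropomyosins wind along actin in non-muscle cells too. *TPM1* (chromosome 30, an interval of 2 listed genes) was at 246 (N1), 85.1 (N3), 4380.3 (N8) and 3345 (N9) FPKM in non-tumor bone and at 259.6 (T1), 140.3 (T3) and 332 (T10) in tumor, so N3 was its lowest sample. *TPM2* (ENSCAFG00000002086, chromosome 11, 52213494 to 52220763) was at 66.6 (N1), 225 (N3), 4114 (N8) and 12949.8 (N9) FPKM in non-tumor bone and at 169.9 (T1), 84.8 (T3) and 50.3 (T10) in tumor. *TPM3* (ENSCAFG00000017311, chromosome 7, 43039460 to 43067297) was at 75.4 (N1), 79.9 (N3), 301 (N8) and 1926 (N9) FPKM in non-tumor bone and at 59.7 (T1), 45.6 (T3) and 69.4 (T10) in tumor. These 3 genes made up 21.5% of the summed FPKM of all members in N3, 10.6% in N8 and 15.7% in N9, below their shares in N1 and the tumors. Their log2 differences were -1.70, -3.39 and -2.07 in this order, with standard errors of 1.33, 1.63 and 1.05. With 1 sample left out, that of *TPM2* ran from -4.66 without N1 to -2.13 without N9. The leiomodins seed actin filaments, and they parted in tumor. *LMOD3* (ENSCAFG00000006531, chromosome 20, 22616528 to 22633695) was at 5.88 (N1), 9.26 (N3), 76.2 (N8) and 371 (N9) FPKM in non-tumor bone and at 10.02 (T1), 8.50 (T3) and 7.65 (T10) in tumor, all tumor values above N1. *LMOD2* was at 0.0354 (N1), 5.33 (N3), 72.0 (N8) and 251 (N9) FPKM in non-tumor bone, at 0.0755 in T1 and 0.0493 in T10, and was listed at 0 in T3. *KLHL40* and *KLHL41* encode kelch proteins that stabilise thin filament proteins. *KLHL41* was at 2.67 (N1), 54.0 (N3), 540.3 (N8) and 2307 (N9) FPKM in non-tumor bone and at 1.35 (T1), 2.91 (T3) and 4.04 (T10) in tumor, and T3 and T10 lay above N1. *KLHL40* was at 99.2 FPKM in N8 and 58.2 in N9, 0.957 in N3, listed at 0 in N1, and at most 0.1005 in a tumor.

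Of the thick filament and M-band genes, *MYBPC1* (chromosome 15, an interval of 4 listed genes) had the widest range, at 0.421 (N1), 42.3 (N3), 631 (N8) and 5137 (N9) FPKM in non-tumor bone and at 0.0583 (T1), 0.0146 (T3) and 0.121 (T10) in tumor. *MYBPC2* (chromosome 1, an interval of 18 listed genes) was at 3.23 (N1), 1.79 (N3), 1198 (N8) and 1231 (N9) FPKM in non-tumor bone and at 1.26 (T1), 2.50 (T3) and 0.727 (T10) in tumor, so T3 lay above N3 and the groups overlapped even without N1. *TTN*, titin, the spring that spans from Z-disc to M-band, was at 0.203 (N1), 1.99 (N3), 58.2 (N8) and 383 (N9) FPKM in non-tumor bone and at 0.637 (T1), 0.00359 (T3) and 2.37 (T10) in tumor (chromosome 36, an interval of 2 listed genes). T10 was above N3 in titin and T1 above N1. *MYBPH* was at 5.20 (N1), 2.69 (N3), 229 (N8) and 181 (N9) FPKM in non-tumor bone and at 9.37 (T1), 0.220 (T3) and 0.222 (T10) in tumor, so T1 exceeded N1 and N3. *MYOM1*, myomesin, was at 1.62 (N1), 4.44 (N3), 87.0 (N8) and 364 (N9) FPKM and at 0.722 to 1.28 in tumor. *MYOM2*, on an unplaced scaffold, was listed at 0 in all 7 samples. The log2 differences of the 5 genes in the fit ran from -6.80 (*MYBPC1*, standard error 2.24) to -3.26 (*TTN*, standard error 1.74).

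The Z-disc genes anchor the thin filaments, and all 11 were higher in N8 than in every tumor. They were chosen as lower in tumor and N8 is a single sample, so nothing is read from this. Over all non-tumor samples the groups overlapped in *ACTN2*, *TCAP*, *MYOZ1*, *MYOZ3* and *XIRP1*. *ACTN2* (ENSCAFG00000010822, chromosome 4, 3348600 to 3415124), the muscle alpha-actinin, was at 3.29 (N1), 27.5 (N3), 884 (N8) and 1892 (N9) FPKM in non-tumor bone and at 4.70 (T1), 1.42 (T3) and 5.38 (T10) in tumor. T1 and T10 were above N1 in this gene. *TCAP* (ENSCAFG00000016374, chromosome 9, 22811792 to 22812980), which caps titin, was at 16.9 (N1), 60.5 (N3), 2527 (N8) and 4795 (N9) FPKM in non-tumor bone and at 17.9 (T1), 3.64 (T3) and 1.52 (T10) in tumor, with T1 level with N1. *DES*, desmin, the intermediate filament that links Z-discs, lies on chromosome 37 in an interval of 11 listed genes and was at 3.01 (N1), 51.0 (N3), 2524 (N8) and 3268 (N9) FPKM in non-tumor bone and at 1.65 (T1), 2.33 (T3) and 1.90 (T10) in tumor. *MYOT* was at 2.38 (N1), 12.1 (N3), 201 (N8) and 1207 (N9) FPKM and at 0.321 to 0.987 in tumor. The myozenins tie calcineurin to the Z-disc. *MYOZ1*, the fast one, was at 1.71 (N1), 21.6 (N3), 2854 (N8) and 3280.2 (N9) FPKM in non-tumor bone and at 1.22 (T1), 2.14 (T3) and 3.65 (T10) in tumor. *MYOZ2* was at 1.13 (N1), 31.7 (N3), 17.9 (N8) and 303 (N9) FPKM in non-tumor bone and at 0.101 (T1), 0.233 (T3) and 0.338 (T10) in tumor. It was one of 2 members in which N8 lay below N3, the other being *MYH3*, at trace levels in both samples. *MYOZ3* was at 73.3 FPKM in N8 and 48.7 in N9 and at most 0.306 elsewhere. *CSRP3*, muscle LIM protein, was, besides *MYH1*, the member with N9 far under N8, and was at 0.126 (N1), 4.76 (N3), 5.31 (N8) and 0.328 (N9) FPKM in non-tumor bone and at 0.0192 (T1), 0.0145 (T3) and 0.0374 (T10) in tumor. *LDB3* (an interval of 4 listed genes), *XIRP1* and *XIRP2* reached 318, 21.4 and 20.1 FPKM in N8 and 255, 40.7 and 146 in N9, and were at most 0.132 FPKM in a tumor.

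In the tumors, 21 of the 40 members stayed under 1 FPKM in all 3 samples, 13 had their highest tumor value between 1 and 10 FPKM, and 6 reached 10 FPKM (*TPM1*, *TPM2*, *TPM3*, *TNNI1*, *TCAP* and *LMOD3*). In addition, 10 members were listed at 0 in at least 1 tumor sample. In 8 genes, after correction for relative depth, every tumor value above 0 was a whole multiple of the lowest step seen for that gene, within 3% of the whole number and up to 10 steps. *TNNT3* stood at 1 step in both T3 and T10, *MYL2* at 1 step in T1 and T3 and 9 in T10, *CSRP3* at 1, 1 and 3 steps in T1, T3 and T10, and *KLHL40* at 2, 1 and 3. *XIRP1* had 7, 5 and 9 steps. The 3% limit widens with the number of steps, so it says little at 7 or 9 steps. How many genes would meet it by chance was not tested. Whether 1 step is 1 fragment is not known from these values. By contrast, 9 members had a tumor sample above N3, among them *TPM1*, *LMOD3*, *TTN*, *MYBPC2* and *MYBPH*. The share of all tested genes with this property was not formed, so the number is only a description. The order of the 40 genes by level was alike among the tumors (Spearman correlation 0.780 to 0.838), between N8 and N9 (0.844) and between N9 and N3 (0.828). It was less alike between N3 and N8 (0.703) and between tumors and N3, N8 or N9 (0.452 to 0.587). N1 lay between, at 0.746 to 0.783 with the tumors and 0.699 to 0.787 with the other non-tumor samples. These are descriptions across genes that share length and annotation.

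Genes of striated muscle outside the 45 were counted from lists that were also written with earlier results known. A list of 38 symbols held further sarcomere and Z-disc genes and other muscle genes such as *STAC3* and *FBXO32*, and 33 were tested. Of these, 17 passed the same limma limits as lower in OSA tumor, beside 3.58% of all tested genes, and 0 rose. Over all 8 muscle and contractile lists 27 genes passed as lower, and 19 of these had a tumor mean under 1 FPKM and so reached the filter through the non-tumor samples alone, which sets their direction. No p is given for such genes, and nothing is read from their counts. The median log2 difference of the 33 genes was -3.15. *SMPX*, a small muscle protein, was at 2.35 (N1), 27.7 (N3), 455 (N8) and 1658 (N9) FPKM in non-tumor bone and listed at 0 in all 3 tumors. *TMOD1*, which caps thin filaments, was at 0.987 (N1), 20.8 (N3), 58.5 (N8) and 261 (N9) FPKM in non-tumor bone and at 1.19 (T1), 0.403 (T3) and 0.566 (T10) in tumor (log2 difference -4.09, standard error 1.35). *NRAP*, an early myofibril scaffold, was at 0.225 (N1), 13.8 (N3), 439.5 (N8) and 817 (N9) FPKM in non-tumor bone and at 0.108 (T1), 0.0192 (T3) and 0.0807 (T10) in tumor (-5.56), and the skeletal cap gene *TMOD4* was at -5.90 on the same scale.

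Fiber-type genes outside the sarcomere gave a less clean split. Between N3 and N8 the fast genes *ATP2A1*, the fast calcium pump, *CASQ1*, *PYGM* and *ENO3* differed by 729, 268, 266 and 198 times, within or above the fast sarcomere range, but *CKM* by 77.5, *GPD1* by 31.4, *PVALB* by 29.2 and *PFKM* by 23.3. The slow genes *ATP2A2*, the slow calcium pump, and *CASQ2* differed by 7.60 and 12.1 times, *FABP3* by 1.43, but *MB*, myoglobin, by 98.2 and *CA3* by 53.4. In OSA tumor, 2 of the 5 slow genes and 5 of the 7 tested fast genes fell and 0 rose, beside 3.58% and 3.28% of all tested genes. *MB* was at 7.47 (N1), 129 (N3), 12655 (N8) and 10049 (N9) FPKM in non-tumor bone and at 0.625 (T1), 0.584 (T3) and 0.413 (T10) in tumor (log2 difference -8.64, standard error 2.25), and with a tumor mean under 1 FPKM it is one of the genes whose direction the filter sets. *PYGM* (-6.37) and *CKM* (-6.62) are others. The value of *CKM* includes its listed 0 in N9 and was -9.00 without N9 and -3.97 without N8. Of the fits without 1 sample, *GPD1* (-4.26) passed in 6 of 7, *CA3* (-3.69) in 3 and *ATP2A1* (-5.74) in 2.

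Of 23 symbols of myogenic and fiber-type regulators 17 were tested, 1 fell (3.58% of all tested genes) and 0 rose. That gene, *MYF6*, which marks differentiated fibers, was at 0.0463 (N1), 3.20 (N3), 99.9 (N8) and 89.7 (N9) FPKM and listed at 0 in all 3 tumors. *MYOG*, myogenin, was at 0.0765 (N1), 0.918 (N3), 7.10 (N8) and 27.4 (N9) FPKM and also listed at 0 in the tumors, but did not pass. The following genes were picked after their values were seen. *CHRNA1* and *CHRNG*, subunits of the acetylcholine receptor of which the gamma chain is the fetal one, were at 105 and 15.6 FPKM in N9, at 0.270 and 0.156 in N8 and at most 0.846 in any other sample. *MYOD1* was at 4.19 FPKM in N9 and at most 0.0479 elsewhere, so these genes had the same high sample as *MYH3* and *MYH8*. Of the 13 genes of the dystrophin-associated membrane complex 2 fell, *CAV3* (-4.07) and *SGCA* (-2.64), beside 3.58% of all tested genes, and 0 rose; both had a tumor mean under 1 FPKM. *SGCD*, delta-sarcoglycan, was at 259 FPKM in T10 and 0.911 to 35.4 in the other samples.

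Contractile genes of cardiac, smooth muscle and non-muscle cells were counted in the same way. Of 10 cardiac symbols 3 were tested and 0 passed in either direction by limma; *TNNT2*, cardiac troponin T, was at 1.72 (N1), 4.85 (N3), 2.44 (N8) and 17.7 (N9) FPKM in non-tumor bone and at 1.40 (T1), 37.5 (T3) and 0.526 (T10) in tumor, and *MYL7* and *NPPB* were listed at 0 in all samples. Of the 7 tested smooth muscle genes 0 passed, with a median log2 difference of 0.52; *MYH11*, which defines smooth muscle, was between 1.54 and 11.4 FPKM in all samples. Of the 12 tested rows of non-muscle actomyosin 1 rose, *TPM4*, a tropomyosin of non-muscle cells, and 0 fell (3.28% of all tested genes were higher). *TPM4* was at 129 (N1), 163 (N3), 96.6 (N8) and 48.1 (N9) FPKM in non-tumor bone and at 232 (T1), 263 (T3) and 588 (T10) in tumor (log2 difference 1.72, standard error 0.61, unadjusted p = 0.0191 by limma), and it passed in 6 of 7 fits without 1 sample. Over these 8 lists together 28 of 97 tested rows passed, against 6.86% of all tested genes. The count and the share of all tested genes both changed with the samples. The count was 51 without N1 (14.9% of all tested genes), 45 without N3 (6.93%), 7 without N8 (2.68%) and 8 without N9 (5.18%). It was 13 without T1 (8.99%), 11 without T3 (4.64%), 5 without T10 (3.32%) and 12 without the filter on low values (4.19%).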

How the data were processed

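RNA was extracted from 4 non-tumor bone and 3 OSA tumor samples and sequenced on an Illumina HiSeq platform from stranded TruSeq libraries. Reads were trimmed by the authors (Trim Galore), mapped with Tophat2 on the CanFam3.1 assembly using Ensembl gene models, and the authors deposited FPKM per gene and sample from Cufflinks/Cuffdiff; versions and the normalization between libraries were not given in the sources used here. A second deposited table holds gene intervals, counted from 0 (1 was added to each start), which were used, and the authors' group FPKM, fold changes and p-values, which were not.

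No counts were analysed. The study states 1 approximate number of reads for its samples, so depth per sample is known only as the relative step of the lowest FPKM (values under 0.5). Precision is limited by the number of samples. Values were taken as log2(FPKM + 1), so differences of low genes are understated. The 13507 genes averaging 1 FPKM or higher were fitted, tumor against non-tumor, by limma 3.58.1 (R 4.3.3; moderated variances with an intensity trend); 11073 genes were left out. A gene passed where the log2 difference was 1 or larger in size and the unadjusted p was under 0.05, which are the limits used by the authors, and Benjamini-Hochberg adjustment was over all tested genes. The fit was tested on simulated data. The labels do not say whether samples came from separate dogs, so p-values measure the spread between these samples.

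The 45 genes, the role groups and the other lists were chosen with earlier results of these data known. All 45 genes are accounted for; from each other list up to 4 genes per direction with the smallest p among those that passed are named, with defining genes as background; some that the rule would name are not reported here. Results were recomputed with a pseudocount of 0.1, without the filter, with 3 other scalings, with a replicate block, without each sample in turn and, chosen after seeing the data, without *MYH1*. Python 3.11.15, pandas 2.3.3, numpy 2.4.6, scipy 1.17.1 and matplotlib 3.10.9 were used for the rest.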

Additional observations from a re-analysis of the deposited data

Results flagged for a closer look

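Of 63 sets of values over the 4 non-tumor samples, on the log2(FPKM + 1) scale, 2 had 1 sample far from the other 3; chance flags about 1 in 20 such sets. *MYH3*, embryonic myosin heavy chain, was at 7.43 FPKM in N9 against 0.0634 in N1, 0.0314 in N3 and 0.0193 in N8, a gap of 0.980 of the whole range. *CIDEC*, a lipid droplet gene of the adipocyte list, was at 0.273 FPKM in N1 against 11.2, 13.3 and 14.9 in N3, N8 and N9, a gap of 0.897 of the range. Groups of 3 tumor samples were not examined in this way.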

How the results depend on the processing

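The 39 tested sarcomere genes kept a negative difference in every alternative that could be fitted with them, 0 of them turning positive, but the number past the limits depended on the samples. With 1 sample left out it ran from 15 to 36, the number over all genes from 362 to 2011 (926 with all samples), and the number of other muscle and contractile genes from 5 to 51 (28 with all samples). Without the filter the last was 12; the cause was not tested. The mean of the slow minus the fast log2 level was 0.12 ± 1.91 (SD, n = 4) in non-tumor and 0.09 ± 0.56 (SD, n = 3) in tumor samples; with 1 sample left out it ran from -0.43 to 1.02 and from -0.22 to 0.31. Without *MYH1*, listed at 0 in N9, the means were -0.64 ± 1.83 and -0.04 ± 0.60, both with the sign turned, and N9 alone went from 0.96 to -1.13. These moves, the other scalings and the pseudocount left the means within the spread between samples.

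The study calls the bone matched, but neither it nor the labels say that a shared number marks 1 dog. With 2 shared numbers the samples were not taken as pairs. With the number as a random block (replicate block, estimated correlation 0.456) 21 sarcomere genes, 18 other muscle and contractile genes and 1062 of all genes passed. Deviations from the group means over all tested genes had correlations of 0.422 for N1 with T1 and 0.211 for N3 with T3, the highest of the 12 pairs; over the 39 sarcomere genes they were 0.0883 and 0.118. With FPKM alone the number of fragments behind a low tumor value is unknown.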
